A study of Homo sapiens with 12 samples.

Results

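The loci described here are 6 human genes at which replication origins were mapped in earlier work on single sites: LMNB2, MCM4, MYC, TOP1, DNMT1 and HBB. They were taken as a fixed list of gene limits on hg19, and every deposited early replicating region (ERR) within 100 kb of a gene was assigned to it, with absence recorded as well. Of 18181 regions outside chromosome M in 4 lists, 29 met this rule. The regions come from EdU-seq under hydroxyurea (EdU-HU-seq) in U2OS cells, a human osteosarcoma line, that carry MycER, a Myc protein held inactive by an attached estrogen receptor domain until its ligand is added. Mitotic cells collected after 8 h in 100 ng/mL nocodazole were released for 24 h with 25 µM EdU, a thymidine analogue that tags new DNA, and 2 mM hydroxyurea, which holds forks close to where they started. All 4 conditions carried a hairpin induced with doxycycline at 1 µg/mL. The hairpin of the shNT lists has no target, and that of the shCDK12 lists is directed against CDK12, a kinase of transcribing RNA polymerase, whose level these files do not measure. In the OHT conditions the ligand, 4-hydroxytamoxifen (OHT), was present at 300 nM for 40 h. The labels give 3 samples per condition, but each list pools them into 1, so that no value below has a replicate check. Reads inside regions totalled 17454665 (shNT), 50554985 (shNT + OHT), 13349692 (shCDK12) and 28860545 (shCDK12 + OHT) and are not scaled to library size, and intervals cover counting error only. Where 4 values are given without names, they follow this order.

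A replication origin is the stretch where the helicase loaded in G1 is switched on and forks leave in both directions. In human cells most origins lie in broad initiation zones, often beside the starts of active genes, and fire at different times of S phase depending on the cell type. The listed loci served as models because initiation was placed there by local assays. At LMNB2, which encodes the nuclear envelope protein lamin B2, initiation was placed at the 3′ end of the gene, near the start of TIMM13. At MCM4, which encodes a subunit of the replicative helicase, it was placed in the short stretch shared with the start of PRKDC. The MYC origin lies upstream of the oncogene, those of TOP1 (DNA topoisomerase I) and DNMT1 (the maintenance DNA methyltransferase) lie towards the 5′ ends of the genes, and the one at HBB lies beside the adult beta-globin gene, which is silent outside the red cell lineage and is typically late replicating in other cells.

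The sequences before the gene starts of LMNB2, TOP1 and DNMT1 are shown. ERRs covered these 5′ ends in all 4 lists. They are the 250 bases before the start as RefSeq gives it, on GRCh38.p14 and not on the build of the lists, read along transcription, with each CG dinucleotide in capitals. The windows are chr19:2456960-2457209 on the minus strand for LMNB2, chr20:41028572-41028821 on the plus strand for TOP1 and chr19:10194954-10195203 on the minus strand for DNMT1. Promoters of the other 3 genes are not shown, because the promoter set used held no usable entry for MCM4, MYC or HBB. The 5′ end of MYC was also covered in all 4 lists.
LMNB2: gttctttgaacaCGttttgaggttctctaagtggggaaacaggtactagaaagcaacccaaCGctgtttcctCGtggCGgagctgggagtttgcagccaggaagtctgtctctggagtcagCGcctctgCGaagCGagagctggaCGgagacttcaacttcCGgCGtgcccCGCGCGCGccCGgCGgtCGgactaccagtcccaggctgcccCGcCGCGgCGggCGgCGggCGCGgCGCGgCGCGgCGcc
TOP1: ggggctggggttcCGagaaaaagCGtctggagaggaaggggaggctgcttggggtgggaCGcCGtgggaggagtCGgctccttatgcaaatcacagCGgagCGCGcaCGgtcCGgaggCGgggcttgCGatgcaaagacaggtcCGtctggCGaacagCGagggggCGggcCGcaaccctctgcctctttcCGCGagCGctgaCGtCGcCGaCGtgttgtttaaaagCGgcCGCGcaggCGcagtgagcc
DNMT1: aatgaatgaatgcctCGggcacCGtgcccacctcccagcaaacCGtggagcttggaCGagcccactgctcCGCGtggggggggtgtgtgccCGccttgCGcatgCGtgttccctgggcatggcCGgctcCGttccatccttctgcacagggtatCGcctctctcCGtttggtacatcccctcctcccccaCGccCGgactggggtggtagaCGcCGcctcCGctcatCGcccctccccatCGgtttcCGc

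All 3 sequences were rich in CG. LMNB2 held 30 CG dinucleotides, TOP1 28 and DNMT1 21, against a median of 11 over 35114 promoters of this length, of which 87.6%, 84.1% and 69.8% held fewer. Their GC content was 66.4%, 66.8% and 66.8%, against a median of 58.0%. Searched on both strands, the GC box GGGCGG was present before LMNB2 and TOP1 and not before DNMT1, and 42.6% of all promoters held it. The E-box CACGTG, the letters preferred by Myc and its partner Max, was in none of the 3 windows and in 6.3% of all promoters. CCAAT (32.0% of promoters) and TATAAA (10.7%) were also in none of the 3. None of these 4 motifs contains another.

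An ERR lay within 100 kb of 5 of the 6 loci in every list, and these were LMNB2, MCM4, MYC, TOP1 and DNMT1. HBB had none in any list. For comparison, 29.4% of all 400 bp windows of the covered span lay within 100 kb of an ERR in shNT and 33.1% with OHT. In shCDK12 the share was 31.4%, and 33.8% with OHT. A gene is longer than a window, so these shares are a low reference for it, and the chromosomes differ. In shNT the share was 59.3% on chromosome 19, which holds LMNB2 and DNMT1, 47.8% on chromosome 20, 39.4% on chromosome 11 and 25.4% on chromosome 8, which holds MCM4 and MYC.

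The gene body itself overlapped an ERR at 4 of 6 loci in shNT and at 5 of 6 in each of the other lists. The shares of windows inside an ERR were 14.5%, 16.0%, 14.8% and 17.9%. The locus that made the difference was MCM4, whose ERR began 3280 bp past the gene in shNT and reached 320 to 3520 bp into it in the other lists. The 5′ end of the gene lay in an ERR at 4 loci in every list (LMNB2, MYC, TOP1 and DNMT1). A rule that at least 50% of the gene body be covered left only LMNB2 and MYC.

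**Figure D1:**
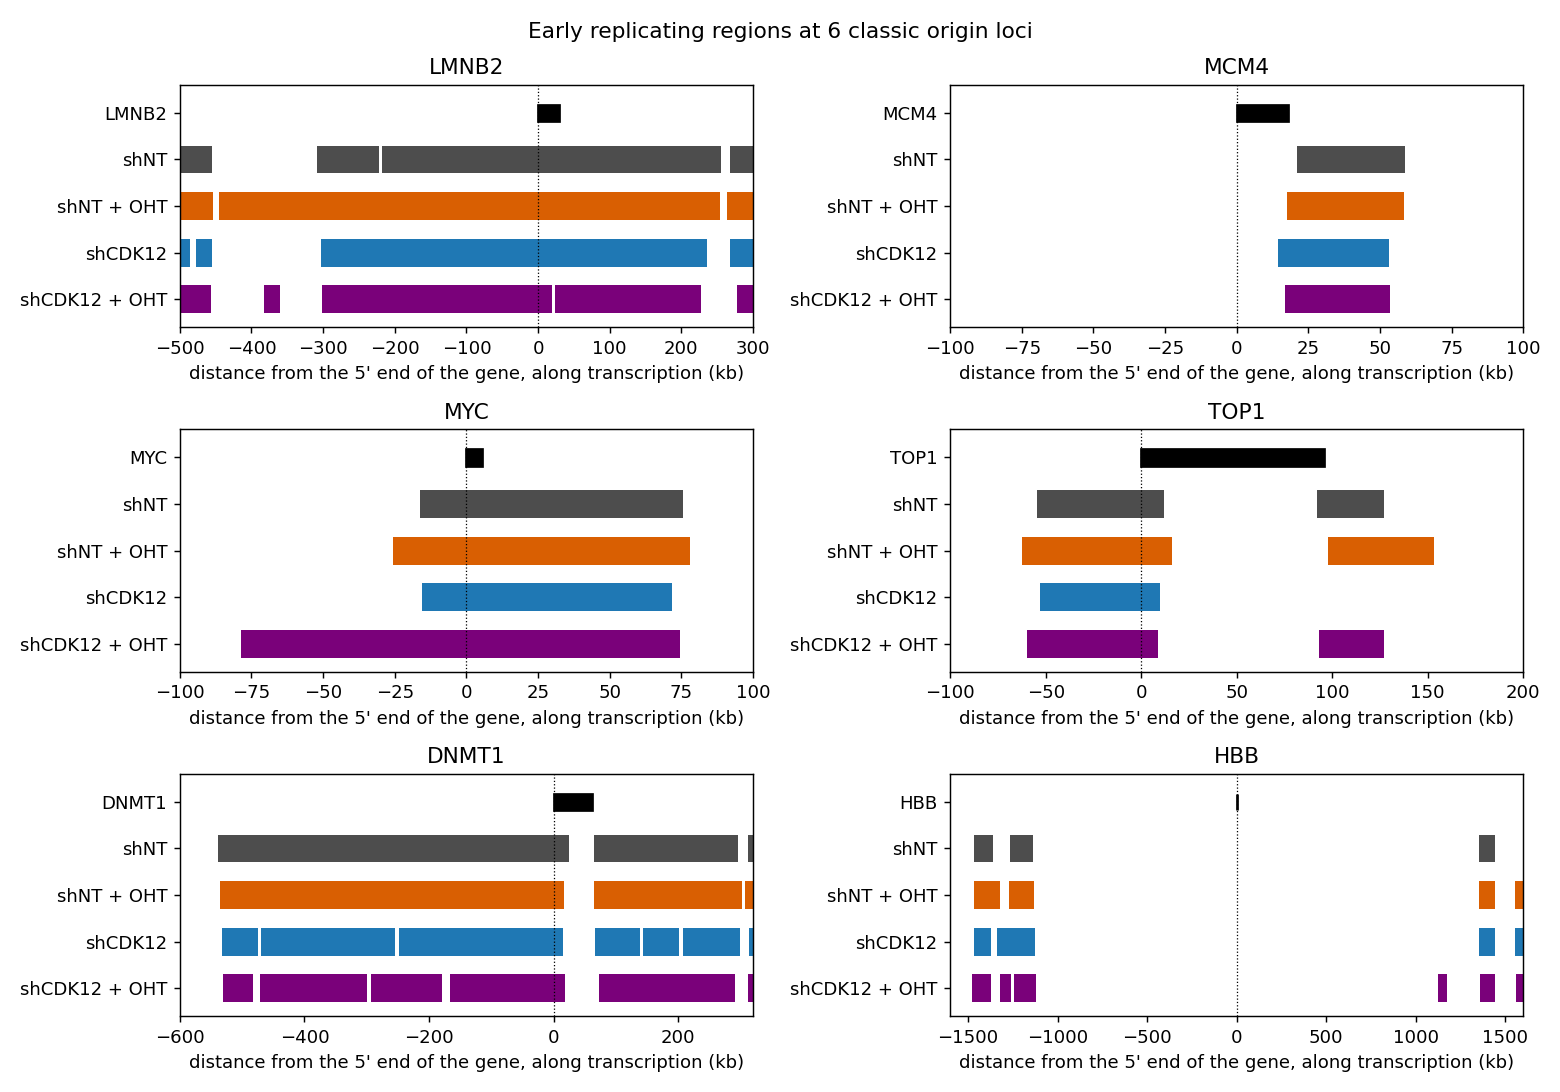
Early replicating regions around each gene in the 4 lists, by distance in kb from the gene's 5′ end along transcription (x axis, different range in each panel). Black bars are the genes and coloured bars the regions, 1 row per condition. The 5′ ends of LMNB2, MYC, TOP1 and DNMT1 lie inside a region in all 4 lists, the MCM4 region starts 14.4 to 21.2 kb past the 5′ end, and no region lies within 1117.7 kb of HBB.

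LMNB2 (chromosome 19, 2428163 to 2456959, minus strand) lay in the most widely covered surroundings of the 6 loci, and its region was the densest of the 5 in every list but shCDK12 + OHT, where its interval overlapped that of DNMT1. In shNT the gene was inside a region of 473.6 kb (2201201 to 2674800) with 41886 reads, or 88.4 reads per kb (Poisson 95% interval 87.6 to 89.3). With OHT the region measured 699.6 kb (2203201 to 2902800) and held 178 reads per kb (177 to 179). In shCDK12 it measured 539.2 kb (2221201 to 2760400) and held 52.3 (51.7 to 52.9). All 3 of these regions contained the gene from end to end and reached 217.8 kb or more upstream and 235.8 kb or more downstream of the 5′ end. In shCDK12 + OHT the locus was divided: a region of 203.6 kb (2229201 to 2432800, 82.4 reads per kb) ended in the gene, and another of 321.6 kb (2437201 to 2758800, 90.5 reads per kb, interval 89.4 to 91.5) began in it. The 4.4 kb between them, at 2432801 to 2437200, lay wholly inside LMNB2 and made up 15.3% of the gene. It equals the shortest gap between neighbouring regions in each of the lists, 4400 bp, so that the split rests on the narrowest gap these lists hold. The 3′ end of the gene, beside which initiation was mapped, was covered in all 4 lists.

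Within their own lists the LMNB2 regions were denser than 95.5% of all regions in shNT (rank 173 of 3873) and 93.1% with OHT (321 of 4652). In shCDK12 the share was 93.5% (320 of 4895), and with OHT the region over the 5′ end stood above 94.0% (286 of 4761). The other shCDK12 + OHT region, which holds the 3′ end, stood above 92.4% (361 of 4761). By the deposited score, which sums over windows and so also grows with width, the ranks were 29, 37, 49 and 120. The last is for the region over the 5′ end, and the one over the 3′ end had score rank 314. The score of the region per 400 bp window, which can reach 1000, was 210, 375, 53.6 and 102. Out to 1 Mb on both sides, ERRs covered 88.7%, 97.1%, 87.9% and 87.8% of the sequence, the most of the 6 loci in each list.

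DNMT1 (chromosome 19, 10244022 to 10305755, minus strand) showed a covered 5′ part and an uncovered 3′ part in all 4 lists. The region over its 5′ end ran from 10281601 to 10844800 in shNT (563.2 kb, 27856 reads, 49.5 reads per kb, interval 48.9 to 50) and from 10288401 to 10841200 in shNT + OHT (552.8 kb, 147 reads per kb, 146 to 148). It was narrower in both silenced lists, at 10291201 to 10554400 in shCDK12 (263.2 kb, 43.6 reads per kb, 42.8 to 44.4) and 10288001 to 10472400 in shCDK12 + OHT (184.4 kb, 91.6 reads per kb, 90.2 to 93.0). The difference lay upstream of the gene, where the region reached 539.0 kb from the 5′ end in shNT, 248.6 kb in shCDK12 and 166.6 kb in shCDK12 + OHT. The sequence beyond was not empty in the silenced lists, which held separate regions there. The next one began 254.2 kb from the 5′ end in shCDK12 (39.4 reads per kb) and 178.6 kb from it in shCDK12 + OHT (50.4 reads per kb). Joining neighbours up to 10 kb apart gave a width of 546.8 kb in shCDK12 and left 184.4 kb in shCDK12 + OHT. Out to 1 Mb on both sides of DNMT1, ERRs covered 56.7%, 57.7%, 51.1% and 49.9%, so that coverage differed less between the lists than the width of the region did.

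The edge of the DNMT1 region on the gene side varied less between the lists than the upstream edge. On the gene side it lay 24.2, 17.4, 14.6 and 17.8 kb into the gene. The rest of the gene body, between 37.6 kb in shNT and 47.2 kb in shCDK12, was not in any region. Another region then began just past the 3′ end, at distances of 2821, 2421, 4421 and 11621 bp. It was less dense than the one over the 5′ end, with 29.1, 85.2, 24.3 and 41.7 reads per kb in that order. It spanned 10009201 to 10241200, 10003601 to 10241600, 10166801 to 10239600 and 10014801 to 10232400. Its width was 232.0, 238.0, 72.8 and 217.6 kb, and its density ranks were 1328, 1188, 1417 and 1608. In shCDK12, where it was narrowest, a separate region lay beyond it, 81621 bp past the gene. That region spanned 10104001 to 10162400 (58.4 kb, 1124 reads, 19.2 reads per kb, rank 2074). The 5′ region was denser than 86.7%, 90.3%, 90.4% and 94.3% of regions, at ranks 517, 451, 470 and 272, and by score it stood above 92.8%, 97.9%, 94.5% and 94.2%.

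TOP1 (chromosome 20, 39657462 to 39753126, plus strand), the longest gene of the list at 95.7 kb, also had a covered 5′ end and a mostly uncovered body, but its 3′ end itself lay in a region in shNT and in shCDK12 + OHT. The region over its 5′ end spanned 39603201 to 39669600 in shNT and, with OHT, 39595201 to 39673600. In shCDK12 it spanned 39604801 to 39667200 and, with OHT, 39597601 to 39666400. It entered the gene for 12.1, 16.1, 9.7 and 8.9 kb. Without OHT its density was 40.4 reads per kb (38.8 to 41.9) for shNT and 29.8 (28.5 to 31.2) for shCDK12. With OHT it was 112 (110 to 115) and 58.3 (56.5 to 60.2). The region was denser than 80.6%, 84.2%, 79.9% and 82.1% of regions, at ranks 752, 735, 983 and 852. By score it stood above 70.9%, 85.6%, 72.5% and 73.1%, so that its place by score was highest in shNT + OHT.

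Most of TOP1 was not in an ERR: its widest uncovered stretch measured 80.0, 79.5, 85.9 and 84.4 kb. At the 3′ end a weak region was present in 3 of 4 lists. It spanned 39749601 to 39784800 in shNT with 523 reads (14.9 reads per kb, 13.6 to 16.2), 39755201 to 39810800 in shNT + OHT with 1970 reads (35.4, 33.9 to 37.0) and 39750801 to 39784800 in shCDK12 + OHT with 782 reads (23.0, 21.4 to 24.7). No region was listed there in shCDK12, where the next one downstream began 183.3 kb past the gene. In the lists that held it, the 3′ region was denser than at most 17.9% of regions, so it stood near the weak end of each list, and its absence from shCDK12 says only that no region was listed. On the upstream side the nearest other region ended at least 2043.1 kb away in all 4 lists.

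MYC (chromosome 8, 128748315 to 128753680, plus strand) lay whole inside 1 region in all 4 lists. That region began 16.3 kb upstream of the gene in shNT (128732001 to 128824000, 92.0 kb), 25.5 kb upstream in shNT + OHT (128722801 to 128826400, 103.6 kb) and 15.5 kb upstream in shCDK12 (128732801 to 128820000, 87.2 kb). In shCDK12 + OHT it began 78.7 kb upstream (128669601 to 128822800, 153.2 kb). The downstream edge moved little, between 71.7 and 78.1 kb past the 5′ end. Nearly all of the greater width in shCDK12 + OHT therefore lay on the upstream side. No other region lay within 341.5 kb of the gene on either side in any list.

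The MYC region held 6471, 14663, 3867 and 7201 reads. Its density in shNT was 70.3 reads per kb (68.6 to 72.1) and with OHT 142 (139 to 144), whereas in shCDK12 it was 44.3 (43.0 to 45.8) and with OHT 47.0 (45.9 to 48.1). It was denser than 93.1% of regions in shNT (rank 268), 89.6% in shNT + OHT (485) and 90.7% in shCDK12 (453), but than 72.6% in shCDK12 + OHT (1303), where the wider limits enter the density. By score, which does not divide by width, it stood above 92.2%, 89.8%, 86.8% and 80.8% of regions. Reads from the MycER transgene that match MYC exons cannot be told apart from those of the gene itself.

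MCM4 (chromosome 8, 48872763 to 48890720, plus strand) had its ERR at or past the 3′ end of the gene and not over its start. The region lay wholly downstream in shNT and covered the 3′ end in the other 3 lists. The region spanned 48894001 to 48931600 in shNT (1009 reads) and, with OHT, 48890401 to 48931200 (2625 reads). In shCDK12 it spanned 48887201 to 48926000 (673 reads) and, with OHT, 48889601 to 48926400 (1373 reads). It therefore began 21.2, 17.6, 14.4 and 16.8 kb past the 5′ end, where the mapped origin lies, and the 5′ end was in no region of any list. By gene order on GRCh38, the next protein-coding gene on that side is UBE2V2. Without OHT the densities were 26.8 reads per kb (25.2 to 28.5) for shNT and 17.3 (16.1 to 18.7) for shCDK12. With OHT they were 64.3 (61.9 to 66.8) and 37.3 (35.4 to 39.3). The region was the weakest of the 5 in every list, denser than 61.3%, 61.8%, 50.6% and 58.5% of regions, at ranks 1499, 1778, 2419 and 1975. By score it stood below the median of its list in 3 of them, at 39.3%, 41.7% and 39.5%, and stood at 51.0% in shNT + OHT.

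HBB (chromosome 11, 5246696 to 5248301, minus strand), which encodes beta-globin, lay in a stretch without ERRs in all 4 lists. The stretch ran from 3896801 to 6383200 in shNT (2.49 Mb) and from 3894401 to 6381200 with OHT (2.49 Mb). In shCDK12 it ran from 3894401 to 6375600 (2.48 Mb) and with OHT from 4122001 to 6366000 (2.24 Mb). The nearest region was 1134.9, 1132.9, 1127.3 and 1117.7 kb away, on the side of higher coordinates. By count, 92.9%, 94.6%, 94.5% and 94.1% of the stretches between neighbouring regions were shorter, with medians of 122, 108, 89.2 and 85.6 kb. A long stretch holds more sequence than a short one. These shares therefore do not say how much of the genome lies in stretches of this length. The lists hold no reads outside regions, so the level of signal at HBB could not be measured.

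**Figure D2:**
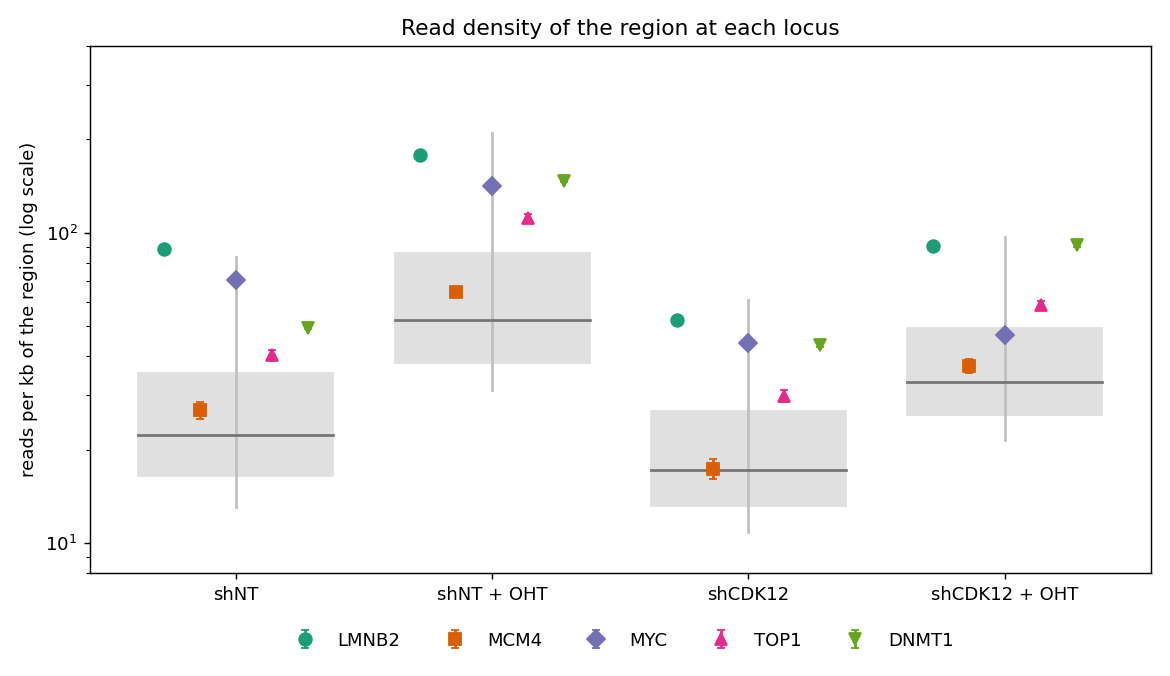
Read density of the region over or nearest to the 5′ end of each gene (y axis, reads per kb on a log scale) in the 4 lists. Points are loci with Poisson 95% intervals of the count, grey boxes the middle 50% of all regions of the list with the median as a line, and grey lines run from the 5th to the 95th percentile. LMNB2, MYC, TOP1 and DNMT1 lie above the median in each list, MCM4 is the lowest of the 5 and lies at the median in shCDK12 (17.3 against 17.2), and densities of different lists are not scaled to depth.

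The median region held 22.3, 52.4, 17.2 and 33.1 reads per kb, and the regions of LMNB2, MYC, TOP1 and DNMT1 were denser than it in each list. MCM4 was denser in 3 lists, but in shCDK12 its 17.3 reads per kb could not be told apart from the median within the counting interval, and it stood above 46.8% of regions at least 30 kb wide and 49.9% with neighbours up to 10 kb apart joined. The densest of the 5 held 3.30, 2.77, 3.02 and 2.45 times the reads per kb of the weakest. In shNT the order was LMNB2, MYC, DNMT1, TOP1 and MCM4, with no overlap of the counting intervals of neighbours. DNMT1 and MYC changed places in shNT + OHT, again without overlap. Intervals of MYC and DNMT1 overlapped in shCDK12, and those of DNMT1 and LMNB2 in shCDK12 + OHT, where MYC was in the fourth place behind TOP1. U2OS cells are aneuploid, and these densities are not corrected for the copy number of each locus.

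**Figure D3:**
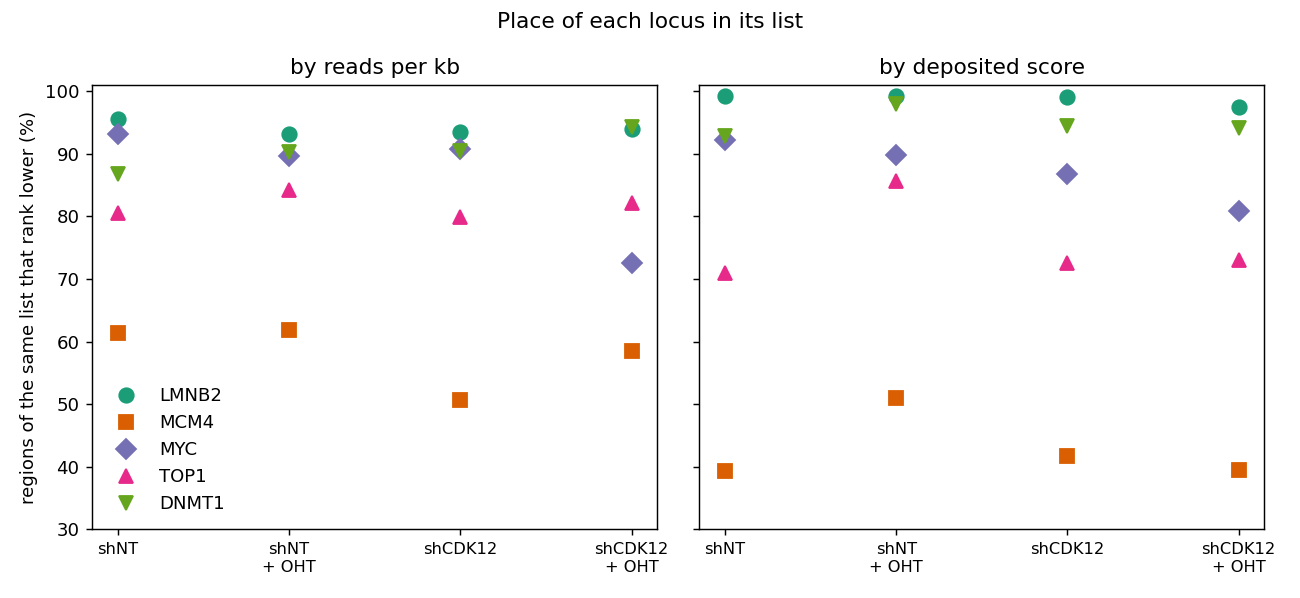
Share of regions of the same list (y axis, percent) that rank below the region of each locus, by reads per kb (left) and by the deposited score (right). Each point is 1 locus in 1 list. LMNB2 stands at 93.1 to 95.5% by density and 97.5 to 99.3% by score, MCM4 at 50.6 to 61.8% and 39.3 to 51.0%, and MYC has the lowest of its 4 places in shCDK12 + OHT on both measures. The LMNB2 point of shCDK12 + OHT is the region over the 5′ end. The region over the 3′ end, not plotted, stands at 92.4% by density and 93.4% by score.

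Densities of different lists were then compared against the change seen over 2104 places that hold exactly 1 region of each list. The median place was 1.45 higher on the log2 scale in shNT + OHT than in shNT and 0.99 higher in shCDK12 + OHT than in shCDK12. It was lower with silencing, by a log2 ratio of -0.25 for shCDK12 over shNT and of -0.70 for shCDK12 + OHT over shNT + OHT. These comparisons share lists with each other, and their values are set side by side. By density no locus was past 2-fold from the median place in any of them, a distance reached by 1.43% of places for OHT in shNT cells, 1.76% for OHT in shCDK12 cells, 1.81% for silencing without OHT and 2.04% for silencing with OHT. Ratios by reads of the region over the 5′ end, in which the width counts, were set against the median read ratio of the same places. By reads LMNB2 was at -1.08 for OHT in shCDK12 cells and -1.45 for silencing with OHT. DNMT1 was at -1.62 for silencing with OHT. The share of places past 2-fold was not computed by reads, so these values have no such reference. In shCDK12 + OHT the LMNB2 count of 29093 reads leaves out the 16769 reads of the region 4.4 kb away.

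The MYC region stood farthest from the median place in 3 of these comparisons, level with LMNB2 in the first of them. With OHT in shNT cells its log2 density ratio was 1.01 (counting interval 0.97 to 1.05), which is -0.44 relative to the median place, and 3.99% of places had a lower ratio. With OHT in shCDK12 cells the ratio was 0.08 (0.03 to 0.14), or -0.90 relative to the median, with 1.66% of places lower. For silencing with OHT it was -1.59 (-1.63 to -1.55), or -0.89, with 2.57% lower, and for silencing without OHT -0.67, or -0.41, with 12.7% lower. The limits of the region enter these ratios. The shCDK12 region lies inside that of shCDK12 + OHT. All reads of the wider region thus give an upper bound of 0.90 for the log2 ratio at the narrower limits. This is -0.09 relative to the median density ratio of the places, each taken at its own limits in each list. The same bound for OHT in shNT cells is 1.18, or -0.27. Set against the median of read ratios instead, MYC was at -0.22 for OHT in shCDK12 cells and -0.27 in shNT cells.

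At LMNB2 the log2 density ratio with OHT was 1.01 in shNT cells (interval 1.00 to 1.03) and 0.79 in shCDK12 cells (0.77 to 0.81), or -0.44 and -0.20 relative to the median place. For silencing it was -0.76 without OHT and -0.98 with OHT, or -0.50 and -0.28. These values depended on width. By reads of the region over the 5′ end, LMNB2 was at 0.12 for OHT in shNT cells and -1.08 in shCDK12 cells. For silencing it was at -0.25 without OHT and -1.45 with OHT. Where shCDK12 + OHT enters, only part of the divided locus was counted. The region over the 5′ end held 29093 reads and the other region 16769, against 28207 in the undivided region of shCDK12. By density DNMT1 was near the median place, at 0.12 and 0.09 for OHT in shNT and shCDK12 cells and at 0.07 and 0.02 for silencing without and with OHT. LMNB2 and DNMT1 are not themselves among the 2104 reference places. The DNMT1 ratios for silencing also compare stretches of unlike width, since the separate regions farther upstream were left out. By reads it was at 0.09 and -0.56 for OHT and at -0.96 and -1.62 for silencing, with a narrower region in the silenced lists. TOP1 was at 0.03 and -0.02 for OHT, with intervals that include 0, and at -0.18 and -0.25 for silencing. MCM4 was at -0.19 (-0.30 to -0.08) for OHT in shNT cells and at 0.12 (-0.01 to 0.25) in shCDK12 cells, and at -0.38 (-0.52 to -0.23) and -0.09 (-0.19 to 0.00) for silencing. Of the 5 loci, 2 lay above the median place for each OHT comparison and 1 for each silencing comparison, and these numbers moved with the reference used.

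**Figure D4:**
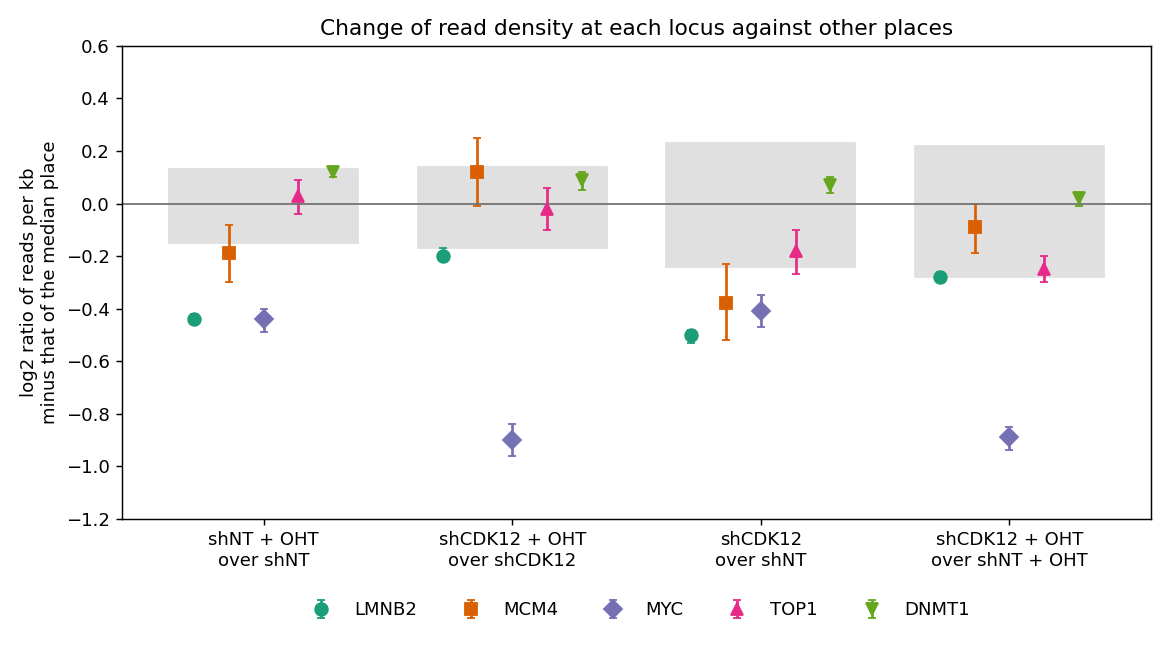
Log2 ratio of reads per kb between lists minus that of the median place (y axis) for each locus in the 4 comparisons that differ in 1 factor. Bars on points are exact 95% counting intervals, and grey boxes span the middle 50% of 2104 places. MYC lies outside the box in all 4 comparisons, at -0.44, -0.90, -0.41 and -0.89. LMNB2 lies at or below the lower edge of the box in all 4, at -0.44, -0.20, -0.50 and -0.28. DNMT1 lies inside the box in all 4.

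Among the places with 1 region of each list, the 1 whose 4 densities were most like those of a locus was looked up, as a description over 4 conditions. For TOP1 it was at chromosome 15, 91341601 to 91506000, with densities within 0.03 of the locus on the log2 scale in every list. For MCM4 it was at chromosome 2, 174819201 to 174946000, within 0.08. For MYC the nearest was at chromosome 4, 169369601 to 169589600, and differed by up to 0.25, so its pattern had the least close counterpart. LMNB2 and DNMT1 lie in places where at least 1 list holds more than 1 region and were not matched.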

How the data were processed

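EdU-HU-seq of U2OS-MycER cells was available as 4 lists of regions, 1 per condition, each merged by the authors over 3 samples. Each deposited region carries a read count, in whole reads without scaling to depth, and a score set by the authors that reaches at most 1000 for each window of 400 bp. The submitters' processing notes name BWA 0.6.2, SAMtools and SICER and the builds hg19 and mm10. Settings, a control library and removal of duplicates are not given in the sources used here. On 14 of 24 chromosomes outside M the lists reach past the hg38 ends, so coordinates were read as hg19 and none was converted. File positions were shifted to count from 1.

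Gene limits came with the list of loci, and strand and gene order from GENCODE and RefSeq on GRCh38. Members and settings were chosen with earlier results of these data known. The region over, or else nearest to, the 5′ end of a gene stood for the locus. All 6 loci are named, and for likeness the 1 place with the smallest largest log2 difference. Density intervals are exact Poisson and ratio intervals exact binomial (95%). With 1 merged list per condition no test was run. Of 1000 intervals on simulated counts, 940 held the planted ratio, and all 200 planted regions were found. Tables and intervals were made with pandas 2.3.3, scipy 1.17.1 and numpy 2.4.6 under Python 3.11.15, and plots with matplotlib 3.10.9.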

Additional observations from a re-analysis of the deposited data

Results flagged for a closer look

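The width of the LMNB2 region moved in opposite directions with OHT: it was 226.0 kb greater in shNT cells and changed by -217.6 kb in shCDK12 cells, where the locus was divided by a gap of 4.4 kb. With neighbours up to 10 kb apart joined, the width in shCDK12 cells was 539.2 kb without and 529.6 kb with OHT, and in shNT cells 564.4 kb without and 3032.0 kb with OHT. The MCM4 region was 3.2 kb wider with OHT in shNT cells and changed by -2.0 kb in shCDK12 cells. Neither difference between backgrounds was tested, since each condition has 1 list.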

How the results depend on the processing

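The number of loci with an ERR within 100 kb was 5 of 6 in each list at 50, 200 and 500 kb, with a common minimum score of 146 and with each list limited to its 3873 highest scores. With at least 50% of the gene body covered, 2 loci remained in each list. A rule that the 5′ end lie in a region, chosen after seeing the data, gave 4 in each. The number of loci above the median place depended on the reference. For OHT in shNT cells it was 1 against places at least 30 kb wide and 5 without centring. For OHT in shCDK12 cells it was 4 against places at most 2 kb wide, 5 without centring and 0 by reads. For both silencing comparisons it was 0 by reads and 0 without centring, and without OHT also 0 with neighbours up to 10 kb apart joined, an alternative added after seeing the data.

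Without centring, the log2 ratio with OHT was above 0 for LMNB2 (1.01 in shNT cells, 0.79 in shCDK12 cells), MCM4 (1.26 in shNT cells) and MYC (1.01 and 0.08), and that of DNMT1 for silencing without OHT was -0.18. By reads, LMNB2 was at 0.12 for OHT in shNT cells, and DNMT1 at -0.56 for OHT in shCDK12 cells and -0.96 for silencing without OHT. Also by reads, without a change of sign, LMNB2 was at -1.08 for OHT in shCDK12 cells and -1.45 for silencing with OHT. Both values leave out the other region of the divided locus in shCDK12 + OHT. The place of MCM4 in shCDK12 ranged from 41.7% to 52.4% over the alternatives. Against narrow places, of which there are 57, MCM4 was at 0.07 for OHT in shNT cells and LMNB2 at 0.13 in shCDK12 cells. With neighbours joined, DNMT1 was at -0.06 for silencing without OHT. These reversals follow from the width of the regions or the median subtracted. MYC kept a negative value in all 4 comparisons under every alternative but the uncentred one, from -0.18 to -0.91. No paired analysis was possible because the 3 samples of a condition are merged in its list, and no sample could be left out.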

Other observations

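MCM4 had a further region on its upstream side in each OHT list, and the lists without OHT had none there. It spanned 48642401 to 48679200 in shNT + OHT (1076 reads, 29.2 reads per kb) and 48625201 to 48679200 in shCDK12 + OHT (1171 reads, 21.7 reads per kb), and in both it ended 193.6 kb from the gene. In shNT and in shCDK12 the nearest region on that side ended 1923.2 and 1920.4 kb away. Both regions of the OHT lists were weak, denser than 1.59% and 5.42% of the regions of their lists. The OHT lists also held more reads than the lists without OHT. The absence from the latter says only that no region was listed there.

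On the side of lower coordinates of HBB, shCDK12 + OHT listed a region of 46.8 kb (4075201 to 4122000, 1034 reads, 22.1 reads per kb) at a distance of 1124.7 kb. The other lists had their nearest region on that side at 1349.9 to 1352.3 kb.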
